A study of Homo sapiens with 6 samples.

Results

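Genes of retinoid synthesis, binding and response were examined by name in RNA sequencing counts of guadecitabine-treated and vehicle-treated breast cancer cells. They were chosen by gene symbol as ALDH1A1, ALDH1A2, ALDH1A3, CRABP1, CRABP2, RARRES1, DHRS3, CYP26B1 and STRA6. Of these 9 genes, 8 were found among the 17100 transcripts of the table, and CRABP1 was not analysed here. In all, 6 of the 8 were among the 13322 transcripts that passed the filter on low counts, and ALDH1A1 and ALDH1A2 were not. ALDH1A3 rose 4.19-fold with guadecitabine and RARRES1 rose 2.12-fold, whereas CYP26B1 fell to 72.2% of its level in vehicle. The call of CYP26B1 was lost whichever library was left out, and that of RARRES1 when any library but vehicle replicate 3 was. Both calls were also lost in a fit with the replicate number as a block. DHRS3, CRABP2 and STRA6 did not pass the test.

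The samples were 6 cultures of MDA-MB-231, an established cell line from a human breast adenocarcinoma that lacks estrogen receptor, progesterone receptor and HER2 amplification. The guadecitabine group comprised 3 biological replicates exposed to 1 µM of the drug for 96 h, after which the cells stayed without drug for 24 h until harvest. The vehicle group comprised 3 biological replicates exposed to vehicle, also for 96 h, and the composition of the vehicle was not given in the sources used here. Guadecitabine (SGI-110) is a dinucleotide prodrug of decitabine, which traps DNA methyltransferases on DNA and lowers the methylation of CpG sites as cells divide. Every result rests on 1 cell line, 1 dose and 1 time, and DNA methylation was not measured in these libraries.

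Retinoids are vitamin A and its derivatives. Cells take up retinol, oxidize it to retinal and then, irreversibly, to retinoic acid, which binds nuclear receptors (the RARs, paired with RXRs) that control transcription of target genes. Binding proteins carry each form through the cell, and cytochrome P450 enzymes of the CYP26 family break retinoic acid down, so its level depends on both synthesis and removal. In breast cancer, aldehyde dehydrogenases of the ALDH1A family are widely used to mark cells with stem-like properties.

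The libraries held from 17602570 to 22277442 counts in vehicle and from 8792127 to 21410849 in guadecitabine, with guadecitabine replicate 2 the shallowest. Vehicle replicate 3 stood apart, since only 20 transcripts had 0 counts there, against 1593 to 2517 in each of the other 5 libraries. Transcripts with at most 1 count in each other library numbered 1525, and their median in vehicle replicate 3 was 19 counts, or 7.99 raw counts per kb of exon. ESR1, the estrogen receptor gene, had at most 1 count in 5 libraries and 67 in vehicle replicate 3, and PGR, the progesterone receptor gene, had 0 and 43. Of the 8 genes listed as low in this line, the keratin gene KRT19 was abundant. It was at 9798 to 12310 reads per kb in vehicle and 4812 to 6892 in guadecitabine. ERBB2, EPCAM and GATA3 were also detected, at 313 to 370, 182 to 210 and 106 to 128 reads per kb in vehicle. The list therefore did not hold for KRT19, ERBB2, EPCAM and GATA3. CDH1 was at 5.49 to 14.0 in vehicle, and FOXA1 had at most 4 counts outside vehicle replicate 3. KRT19 made up most of the sum of the 8, which came to 10460 to 13010 reads per kb in vehicle and 5350 to 7445 in guadecitabine. Of the 5 tested, GATA3 rose (log2 fold change 0.83), whereas KRT19, ERBB2, EPCAM and CDH1 fell (−0.88, −0.74, −0.68 and −1.625). The 6 genes that are high in this line summed to 98710 to 129100 reads per kb in vehicle and 90280 to 102700 in guadecitabine. LGALS1 and VIM made up most of that sum, and single genes moved within it. AXL, CAV1 and LGALS1 fell (log2 fold changes −1.27, −1.19 and −0.71), and CD44 and VIM rose (1.18 and 0.33). EGFR, at 0.25, did not pass the test. Marker sums of other cell types were higher in guadecitabine, from 1692 to 1931 up to 4066 to 4253 reads per kb for 5 of 6 leukocyte genes, and from 77.3 to 144 up to 339 to 449 for 5 of 5 stromal genes. They were 23.0 to 42.7 in vehicle and 46.1 to 58.8 in guadecitabine for 4 of 4 endothelial genes, and 368 to 533 and 777 to 911 for 3 of 4 hepatocyte genes. Most of the leukocyte sum was CD68, of the stromal sum in guadecitabine COL1A1, and of the hepatocyte sum SERPINA1, and of the endothelial sum KDR and PECAM1. The stromal genes did not move together. Of the 3 tested, COL1A1 rose (log2 fold change 3.38), PDGFRB fell (−0.92, edgeR adjusted p = 0.00116) and LUM did not pass the test. The markers PTPRC, DCN, CDH5 and ALB had at most 4 counts in any library but vehicle replicate 3, where they had 36, 24, 18 and 11. Other genes of these lists were detected in every library, with 63 to 127 counts of KDR in vehicle and 86 to 199 in guadecitabine (log2 fold change 1.20, edgeR adjusted p = 0.00261). The part of these markers in the results was not tested.

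The sequence just upstream of each gene was read because guadecitabine acts on methylation of CpG sites. The sequences of 4 genes are shown: the 3 that changed, and ALDH1A1 as the member without a CpG. Each is the 250 bases before the deposited transcript start on the GRCh37 build, written 5′ to 3′ on the strand of the gene, and the capitals mark each CG. ALDH1A3 is read from chr15:101419647-101419896 on the plus strand, RARRES1 from chr3:158450276-158450525 on the minus strand, CYP26B1 from chr2:72374992-72375241 on the minus strand and ALDH1A1 from chr9:75568234-75568483 on the minus strand.
ALDH1A3: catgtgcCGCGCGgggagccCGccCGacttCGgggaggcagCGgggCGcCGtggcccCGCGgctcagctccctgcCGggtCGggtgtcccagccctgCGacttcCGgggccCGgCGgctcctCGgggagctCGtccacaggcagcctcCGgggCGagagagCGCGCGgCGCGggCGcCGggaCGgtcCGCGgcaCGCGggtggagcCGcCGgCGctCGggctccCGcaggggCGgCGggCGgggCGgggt
RARRES1: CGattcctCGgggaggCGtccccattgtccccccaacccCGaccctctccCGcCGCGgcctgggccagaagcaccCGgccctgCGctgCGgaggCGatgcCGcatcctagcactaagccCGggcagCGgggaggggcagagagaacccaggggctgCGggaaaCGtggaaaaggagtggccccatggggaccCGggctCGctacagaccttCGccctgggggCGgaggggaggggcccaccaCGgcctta
CYP26B1: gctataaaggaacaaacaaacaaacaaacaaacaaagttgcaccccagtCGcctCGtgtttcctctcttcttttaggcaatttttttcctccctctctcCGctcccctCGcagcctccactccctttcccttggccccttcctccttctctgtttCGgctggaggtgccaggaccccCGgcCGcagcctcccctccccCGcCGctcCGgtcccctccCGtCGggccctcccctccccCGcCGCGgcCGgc
ALDH1A1: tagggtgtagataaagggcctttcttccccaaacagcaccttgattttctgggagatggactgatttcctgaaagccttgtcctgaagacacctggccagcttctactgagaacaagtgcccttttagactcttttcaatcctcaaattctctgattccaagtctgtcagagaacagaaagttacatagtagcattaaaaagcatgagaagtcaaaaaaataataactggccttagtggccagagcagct

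These 250 bases held 42 CpG sites in ALDH1A3, and 2.40% of all 17100 transcripts had as many or more. ALDH1A2 had 30 (16.0% of transcripts had as many or more), RARRES1 had 21 (38.6%), CRABP2 and CYP26B1 had 16 each (53.9%) and DHRS3 had 13 (62.7%). STRA6 had 2 and ALDH1A1 had 0, below the quartiles of all transcripts, which were 7 and 25 around a median of 17. The member with the most upstream CpG sites, ALDH1A3, was also the one with the largest rise, but ALDH1A2, with the next most, stayed at a few counts, and CYP26B1, with 16, fell. The deposited start lay 479 bp from the nearest GENCODE transcript start of the gene for DHRS3, 261 bp for ALDH1A1 and 121 bp for ALDH1A3, and within 3 bp for the other 5 genes. Which start these cells used was not measured, so a window may not be that of the transcript in use.

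**Figure D1:**
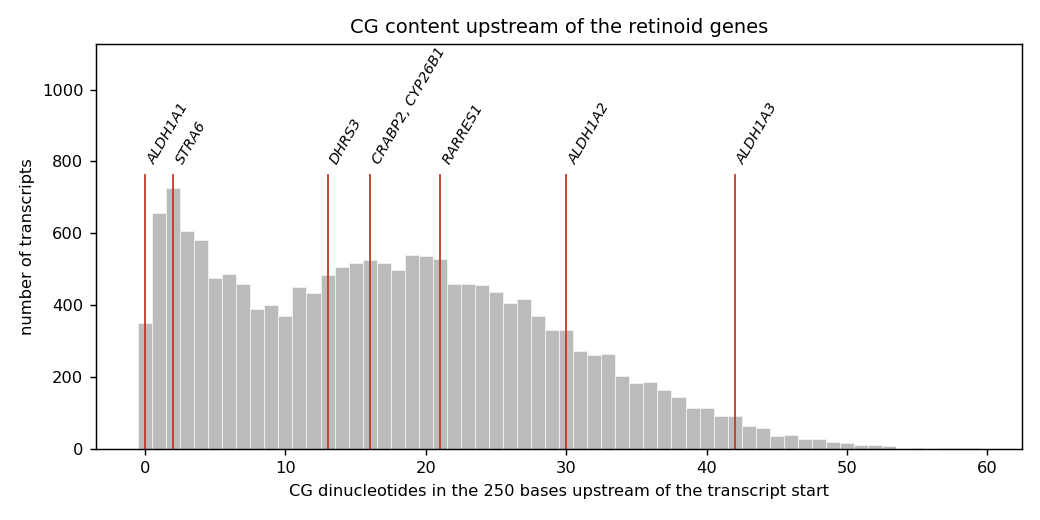
Number of CpG sites in the 250 bases upstream of the transcript start (x axis) for all 17100 transcripts, as bars of the number of transcripts (y axis), with the 8 retinoid genes marked. ALDH1A3, at 42, lies far to the right of the median of 17, and ALDH1A1, at 0, at the left end.

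The retinoic acid response element is a pair of hexamers in the same direction, to which the receptors bind. The hexamer AGGTCA, its variant AGTTCA, its variant GGGTCA and its variant GGTTCA were searched as direct pairs separated by 5 or by 2 bases, on both strands of the 1000 bases upstream of each start, and overlapping matches were allowed. Of the 8 members, 0 held such a pair, whereas 0.263% of all transcripts held a pair spaced by 5 and 2.50% a pair spaced by 2. This says only that these letters were absent from these windows.

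ALDH1A1, ALDH1A2 and ALDH1A3 encode the retinaldehyde dehydrogenases, which turn retinal into retinoic acid. ALDH1A3 lies on chromosome 15 from 101419897 to 101456830 on the plus strand. Its level, in normalized reads per kb of counted exon, was 83.6, 67.6 and 76.5 in vehicle replicates 1 to 3 and 328, 319 and 307 in guadecitabine replicates 1 to 3. Every guadecitabine library was above every vehicle library, with means of 318 ± 10.5 and 75.9 ± 8.02 (SD, n = 3 each). The log2 fold change was 2.07 with a standard error of 0.115 and a 95% confidence interval from 1.81 to 2.33, and the adjusted p was 2.6e-06 in the quasi-likelihood test of edgeR with Benjamini-Hochberg adjustment over all transcripts tested. It stayed between 2.00 and 2.14 when any 1 of the 6 libraries was left out. In bulk RNA, more cells that express a gene and more RNA per cell cannot be told apart. Exons of ALDH1A3-AS1, an RNA of the opposite strand, overlap 1715 bp of the exons of all GENCODE transcripts of ALDH1A3. Those of ENSG00000272639, an RNA of the same strand, overlap 63 bp. How much of this lies in the counted exons was not measured. Whether the counting used strand was not given in the sources used here, so reads from shared bases cannot be told apart.

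The other members of the family were barely detected. ALDH1A1, on chromosome 9 from 75515578 to 75568233 on the minus strand, had 0, 0 and 22 raw counts in vehicle and 3, 1 and 2 in guadecitabine, where a count of 0 allows up to 3. ALDH1A2, on chromosome 15 from 58245622 to 58358121 on the minus strand, had 3, 0 and 26 in vehicle and 7, 2 and 10 in guadecitabine. For both genes the highest library was vehicle replicate 3 and the groups overlapped. There ALDH1A1 was at 9.29 raw counts per kb and ALDH1A2 at 7.03, above 61.0% and 40.8% of the 1525 transcripts that were near 0 everywhere else. A change of either gene was not detectable at this depth. By reads per kb, ALDH1A3 made up 99.1%, 100% and 85.8% of the 3 genes' sum in vehicle and 99.2%, 99.4% and 98.8% in guadecitabine, and the low value was that of vehicle replicate 3.

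**Figure D2:**
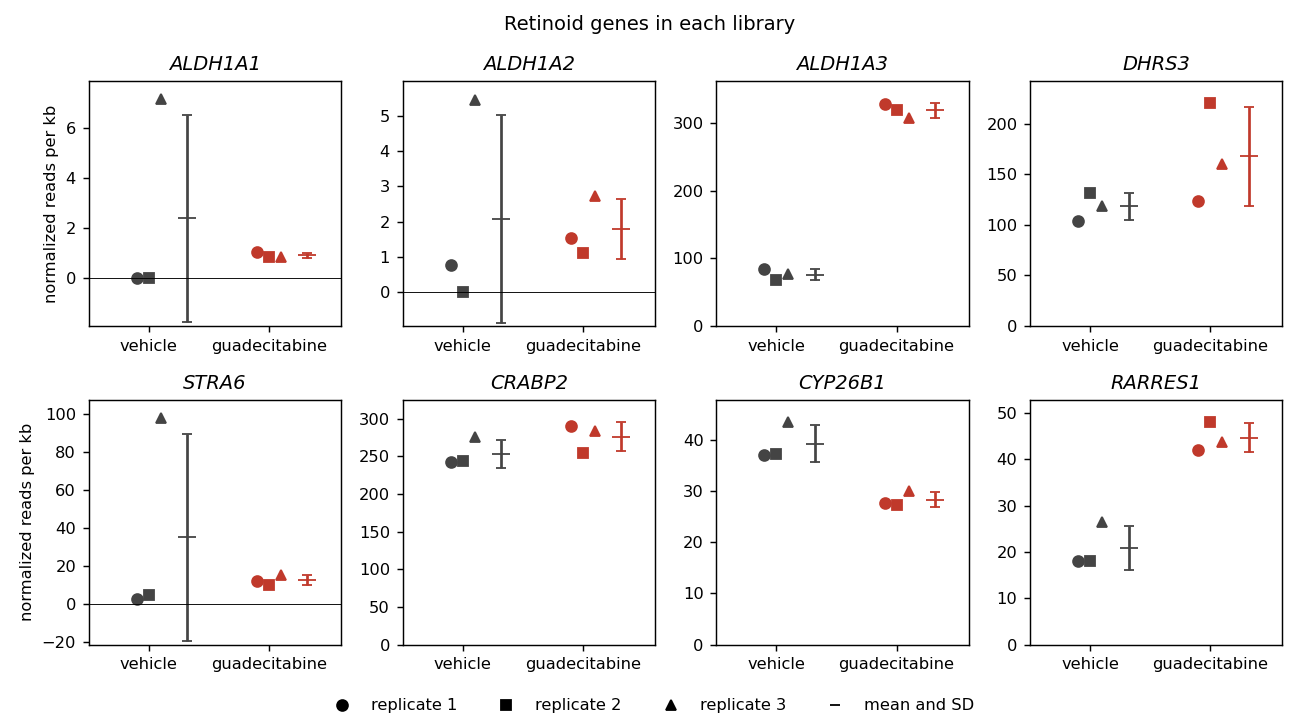
Normalized reads per kb of counted exon (y axis) of the 8 retinoid genes, 1 panel a gene with its own scale that includes 0, with 1 point a library and the mean and SD of each group of 3 (SD bars may run below 0). The groups do not overlap for ALDH1A3, RARRES1 and CYP26B1, and in STRA6 the 97.6 of vehicle replicate 3 lies far above the other 5 libraries.

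STRA6, on chromosome 15 from 74471808 to 74502046 on the minus strand, encodes the membrane receptor that takes up retinol from its carrier in blood. Its level was 2.56, 4.97 and 97.6 reads per kb in vehicle and 12.0, 10.3 and 15.6 in guadecitabine. A single library therefore set the vehicle mean of 35.1 ± 54.2, against 12.6 ± 2.73 in guadecitabine, and the groups overlapped. With all libraries the log2 fold change was −1.48 with a standard error of 1.07 and an interval from −3.88 to 0.93 (edgeR adjusted p = 0.308). Without vehicle replicate 3 its direction turned to 1.78 with a standard error of 0.383 (edgeR adjusted p = 0.00403), so no direction can be given for STRA6. Its 376 counts in vehicle replicate 3, 126 raw counts per kb, exceeded those of 99.9% of the 1525 transcripts that were near 0 elsewhere. CCDC33, whose exons overlap 397 bp of the GENCODE exons of STRA6 on the opposite strand, had 40 counts in that library and at most 1 in the others.

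DHRS3, on chromosome 1 from 12627939 to 12677737 on the minus strand, encodes a reductase that returns retinal to retinol and so limits retinoic acid synthesis. It was at 104, 131 and 119 reads per kb in vehicle and 123, 220 and 160 in guadecitabine. The groups overlapped, with guadecitabine replicate 1 inside the vehicle range, and the guadecitabine libraries spread widely (168 ± 48.8, against 118 ± 13.7 in vehicle). The log2 fold change of 0.49 had a standard error of 0.209 and did not pass the test (edgeR adjusted p = 0.0962). Without guadecitabine replicate 1 it was 0.67 and passed, with an adjusted p of 0.0181 in edgeR.

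CRABP2, on chromosome 1 from 156669400 to 156675608 on the minus strand, encodes a cytoplasmic protein that carries retinoic acid to its receptors. It was at 242, 243 and 275 reads per kb in vehicle and 291, 254 and 284 in guadecitabine, and the groups overlapped. Its log2 fold change was 0.13 with an interval from −0.15 to 0.41 (edgeR adjusted p = 0.455), which leaves room for a rise to 1.33-fold but not for one of the size seen for ALDH1A3.

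CYP26B1, on chromosome 2 from 72356367 to 72374991 on the minus strand, encodes an enzyme that oxidizes retinoic acid to less active forms. It was at 37.1, 37.1 and 43.5 reads per kb in vehicle and 27.6, 27.3 and 30.0 in guadecitabine. Every guadecitabine library was below every vehicle library, with means of 28.3 ± 1.46 and 39.2 ± 3.67 (SD, n = 3 each). The log2 fold change was −0.47 with a standard error of 0.154 and an interval from −0.82 to −0.12 (edgeR adjusted p = 0.0386). The direction held but the call was lost whichever library was left out, with adjusted p-values from 0.0610 to 0.0868. It was also lost in DESeq2 (adjusted p = 0.0671), in edgeR on library totals alone (adjusted p = 0.0783) and in edgeR with a replicate block (adjusted p = 0.0759).

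RARRES1, on chromosome 3 from 158414897 to 158450275 on the minus strand, encodes a membrane protein first found as a gene induced by a synthetic retinoid in skin. It was at 18.1, 18.0 and 26.4 reads per kb in vehicle and 42.0, 48.1 and 43.7 in guadecitabine. The groups did not overlap, with means of 20.8 ± 4.78 and 44.6 ± 3.15 (SD, n = 3 each), but the raw counts were low, from 26 to 79. The log2 fold change was 1.09 with a standard error of 0.332 and an interval from 0.34 to 1.83 (edgeR adjusted p = 0.0296). It stayed between 1.00 and 1.29 without any 1 library, and the adjusted p rose to 0.0719 to 0.101 when any library but vehicle replicate 3 was removed and fell to 0.00201 without vehicle replicate 3. Its GENCODE exons share 289 bp with MFSD1 on the opposite strand. MFSD1 had 976 to 1218 counts in vehicle and 562 to 1408 in guadecitabine and a log2 fold change of 0.12 (edgeR adjusted p = 0.398).

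Of the 6 members tested, 3 passed an adjusted p of 0.05, 2 higher and 1 lower in guadecitabine, and 4 had an unadjusted p under 0.05. Over all transcripts tested 37.7% passed, 19.3% higher and 18.4% lower, so the share of members called, 50%, is not by itself a result about these genes. Without vehicle replicate 3 the calls were ALDH1A3, RARRES1 and STRA6, 3 higher and 0 lower. In that fit 5577 of all 13296 transcripts tested passed, 3002 higher and 2575 lower. For single genes an exact two-sided permutation test of 3 against 3 libraries cannot go below p = 0.1, and ALDH1A3, RARRES1 and CYP26B1 each reached that value. How many of all transcripts reached it was not counted, so reaching it is not by itself a result about these genes. The plot of log2 fold changes shows the members side by side.

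**Figure D3:**
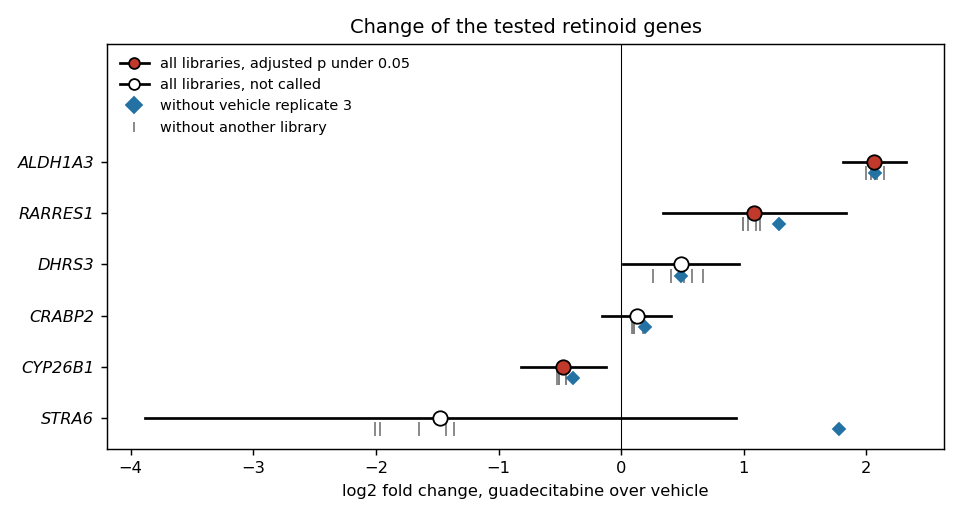
Log2 fold change of guadecitabine over vehicle (x axis) for the 6 retinoid genes tested, with bars for the 95% confidence interval of edgeR. ALDH1A3 stands at 2.07 with a narrow interval, and the interval of STRA6 reaches from −3.88 to 0.93.

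In vehicle the order of levels per kb was CRABP2, DHRS3, ALDH1A3, CYP26B1, STRA6 and RARRES1, then ALDH1A1 and ALDH1A2. The ranges over libraries did not overlap between neighbours among the first 4 genes, whereas STRA6 overlapped both of its neighbours and ALDH1A1 overlapped ALDH1A2. In guadecitabine ALDH1A3 came first, ahead of CRABP2, DHRS3, RARRES1, CYP26B1, STRA6, ALDH1A2 and ALDH1A1, and no neighbours in that order had overlapping ranges. The ratio of ALDH1A3, which makes retinoic acid, to CYP26B1, which removes it, was 2.26, 1.82 and 1.76 in vehicle and 11.9, 11.7 and 10.3 in guadecitabine. The ratio is one of transcript levels per kb, and neither protein nor retinoic acid was measured in these libraries.

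The tested transcripts whose log2 CPM followed ALDH1A3 most closely over the 6 libraries were DNAJC6 (Pearson r = 0.99987), IRGQ (0.99876) and SSTR2 (0.99859), and 176 transcripts had an r over 0.99. For CYP26B1 they were SALL2 (0.997), GNAS (0.99674) and MAP2K6 (0.99627), with 17 transcripts over 0.99. These values describe 6 libraries in 2 conditions, which share the treatment and library depth.

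The rest of the pathway was read from a list of 107 genes in 8 groups by role, of which 99 were in the table and 68 were tested. In this list 11 genes rose and 15 fell, 38.2% of those tested against the 37.7% of all transcripts. The median log2 fold change was −0.11, against 0.02 over all transcripts. The list includes 15 tested aldehyde dehydrogenases that act on other aldehydes, of which 0 rose and 7 fell, with a median of −0.66. It also includes 10 coregulators, of which 1 rose and 2 fell. The counts and median of the list are therefore not those of retinoid genes alone. Without vehicle replicate 3, 18 genes rose and 16 fell, where 5577 of all 13296 transcripts tested passed, 3002 higher and 2575 lower.

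Among 7 receptor genes, the RAR and RXR genes and PPARD, 5 were tested and 1 passed, 20% against 37.7% of all transcripts tested. RXRB, a shared partner of many nuclear receptors, was at 1259, 1143 and 817 reads per kb in vehicle and 577, 903 and 660 in guadecitabine, with a log2 fold change of −0.59 (edgeR adjusted p = 0.0427). Its groups overlapped, and without any one of 4 of the libraries the call was lost (adjusted p up to 0.165). RARA, RARG and RXRA had log2 fold changes of 0.08, −0.06 and −0.18 (edgeR adjusted p = 0.617, 0.736 and 0.292). PPARD, a fatty acid receptor that can also bind retinoic acid, was at 510.4, 519.7 and 468 reads per kb in vehicle and 558, 655 and 626 in guadecitabine. Its groups did not overlap, but its log2 fold change of 0.30 did not pass the test (edgeR adjusted p = 0.0547), and it was named after its values were seen. RARB, a classical target of retinoic acid as well as a receptor, had 1, 0 and 28 counts in vehicle and 7, 1 and 2 in guadecitabine, and RXRG had 1, 4 and 38 and then 6, 2 and 3. Both were highest in vehicle replicate 3 and were not tested.

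Of the proteins that carry retinol and other retinoids, 8 of 10 were in the table, 4 were tested and 2 rose. That is 50% of those tested, against 37.7% of all transcripts tested that passed in either direction. RBP4, the carrier of retinol in blood, had 0, 0 and 5 raw counts in vehicle and 62, 32 and 60 in guadecitabine. RBP7, a cellular retinol-binding protein, had 5, 1 and 13 and then 89, 31 and 96. Neither gene's groups overlapped, and the fitted log2 fold changes were 5.21 for RBP4 and 3.78 for RBP7 (edgeR adjusted p = 0.00173 and 0.00129). The few counts in vehicle set their size, so that without vehicle replicate 3 they were 8.77 and 4.65.

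Of 21 dehydrogenases and reductases of retinol and retinal, 11 were tested, 2 rose and 2 fell, 36.4% against 37.7% of all transcripts tested. RDH10, the main enzyme that oxidizes retinol to retinal in development, was at 17.8, 14.4 and 20.1 reads per kb in vehicle and 46.2, 31.4 and 40.6 in guadecitabine, with no overlap and a log2 fold change of 1.18 (edgeR adjusted p = 0.00294). AKR1C3, an aldo-keto reductase that also acts on steroids, was at 1423, 1501 and 1488 and then 650, 555 and 671, a log2 fold change of −1.23 (edgeR adjusted p = 4.4e-05). AKR1C3 has close paralogs, and how reads that match several places were counted was not given in the sources used here, so its value is uncertain. The other calls in this group, named after their values were seen, were AKR1B1 at 0.74 and RDH11 at −0.46 on the log2 scale.

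Of 9 genes of retinyl esters and carotenoids in the table, 5 were tested, 1 rose and 2 fell, 60% against 37.7% of all transcripts tested. LIPE, hormone-sensitive lipase, which can hydrolyse retinyl esters, was at 46.1, 60.4 and 47.7 reads per kb in vehicle and 20.1, 24.5 and 24.6 in guadecitabine, with no overlap and a log2 fold change of −1.16 (edgeR adjusted p = 0.0013). SCARB1, a lipoprotein receptor that also takes up carotenoids, rose by 0.50 on the log2 scale, and PNPLA4 fell by 0.69, both named after their values were seen. Of 6 genes listed under retinoic acid breakdown besides CYP26B1, 1 was tested, CYP1B1, with a log2 fold change of −0.10 (edgeR adjusted p = 0.556). CYP1B1 is not specific to that step, so breakdown by enzymes other than CYP26B1 cannot be read from this list. CYP26A1, another enzyme that breaks retinoic acid down, had 0, 0 and 28 counts in vehicle and 0, 2 and 1 in guadecitabine.

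Of 22 other genes known to respond to retinoic acid in the table, 17 were tested, 5 rose and 1 fell. That is 35.3% of those tested, near the 37.7% of all transcripts tested, and the median log2 fold change was 0.15. TNIP1, an inhibitor of NF-kappaB signalling, was at 2312, 2480 and 2567 reads per kb in vehicle and 8414, 8454 and 9645 in guadecitabine, with a log2 fold change of 1.85 (edgeR adjusted p = 2.45e-06). NRIP1, a corepressor of nuclear receptors, was at 15.0, 14.4 and 17.2 and then 66.0, 37.0 and 36.1, a log2 fold change of 1.59 (edgeR adjusted p = 0.00101). TNFSF10, the death ligand TRAIL, was at 289, 312 and 295 and then 855, 490 and 656, a log2 fold change of 1.17 (edgeR adjusted p = 0.00112). RAI14 and TGM2, named after their values were seen, rose by 0.95 and 0.49. RARRES3, a phospholipase first found as induced by a retinoid, moved the other way from RARRES1: it was at 5428, 5178 and 5667 reads per kb in vehicle and 2107, 2315 and 2427 in guadecitabine, a log2 fold change of −1.25 (edgeR adjusted p = 2.76e-05). TNIP1, NRIP1, TNFSF10 and RARRES3 each had groups that did not overlap. They were named because they passed the test, and the share of all transcripts without overlap was not counted.

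**Figure D4:**
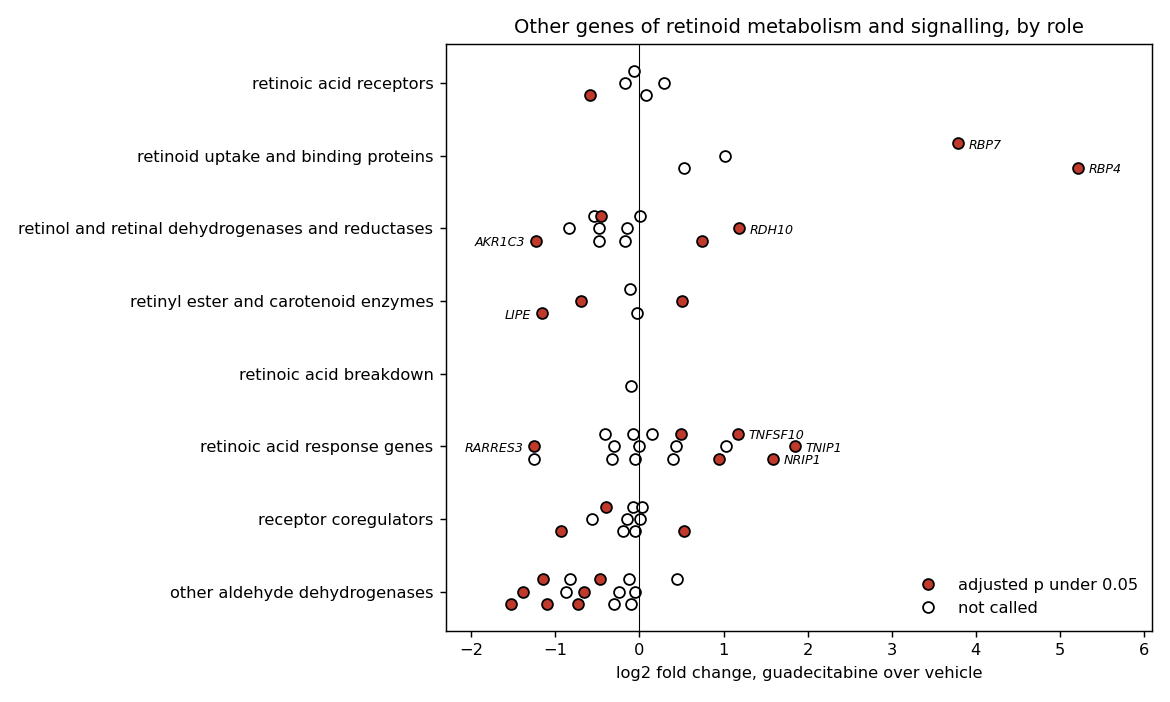
Log2 fold change of guadecitabine over vehicle (x axis) of the 68 tested genes of the wider retinoid list, in 8 rows by role, filled where the edgeR adjusted p was under 0.05. Names are given for called genes at 1 or more in size outside the last row, where 7 of 15 aldehyde dehydrogenases were lower and 0 higher.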

How the data were processed

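RNA sequencing libraries of MDA-MB-231 cells (TruSeq kit) were grouped by their titles. The authors aligned reads with STAR (2.3.1z in the submitters' processing notes) to hg19 and deposited raw read counts over the exons of 1 RefSeq transcript a gene, counted with iRNA-seq, with the exon length. The authors also deposited regularized log2 values, a mean signal over all libraries, and their own DESeq2 comparison (log2 fold change, its standard error, a test score and p-values); none of these was used. Read length and strand use were not given in the sources used here. The deposited start counts from 0, and 1 was added to it. GRCh37, with GENCODE gene models, is the same assembly as hg19. Overlaps with other genes were taken over the exons of all GENCODE transcripts of a member within its deposited span.

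The test was the quasi-likelihood test of edgeR 4.0.16 (R 4.3.3) after TMM normalization. The filterByExpr filter (minimum count 10) kept 13322 transcripts, over which p-values were adjusted by Benjamini and Hochberg, and the threshold was 0.05. Standard errors were derived from the quasi-likelihood statistic. Levels are TMM-normalized counts, scaled to the mean effective library size of 17937628, per kb of counted exon, and intervals are at 95%. Exact permutation tests were two-sided. No libraries held identical counts (0 pairs). Sequences were read with Python 3.11.15.

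The text names all members found, the RAR and RXR genes, other genes of the lists with an adjusted p under 0.05 and a log2 change of at least 1, the 2 coregulators and the 2 other aldehyde dehydrogenases with the smallest adjusted p, and the 3 closest patterns to 1 risen and 1 fallen member. The members and lists were chosen with earlier results of these data known. Alternatives were a replicate block, DESeq2 1.42.0, DESeq2 size factors, library totals, no filter, at least 10 counts in every library, and each library left out in turn. Depths of 8792127 to 22277442 counts leave genes of a few counts unresolved, and the floor of 3 counts in a library covers counting error only.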

Additional observations from a re-analysis of the deposited data

How the results depend on the processing

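Of the members, 3 passed the test, and 2 to 3 did under DESeq2, its size factors, library totals and both other filters. Leaving out 1 library gave 1 to 3. The 3 without vehicle replicate 3 were ALDH1A3, RARRES1 and STRA6, all higher, and 1 member passed without vehicle replicate 1, vehicle replicate 2, guadecitabine replicate 2 or guadecitabine replicate 3. STRA6 ranged from −2.01 to 1.78 on the log2 scale over the libraries left out, and was above 0 only without vehicle replicate 3. RARG ranged from −0.15 to 0.05, with 0.0498 without guadecitabine replicate 1 as the highest. RXRB lost its call with no filter (edgeR adjusted p = 0.0729). The wider list had 22 to 34 calls, and all transcripts had 5022, with 3335 without guadecitabine replicate 3 and 5577 without vehicle replicate 3 as the extremes. Of the log2 fold changes of named genes under all alternatives, 250 kept direction and side of the threshold, 20 lost their call, 1 gained one and 2 reversed, of which STRA6 also gained a call. No mean level of a member moved beyond its SD under the other scalings, which shifted the median log2 fold change from 0.02 to 0.01 and 0.05.

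Deviations of same-numbered libraries correlated at −0.05, 0.05 and −0.04, and those of the other pairs lay between −0.06 and 0.06. The labels name no shared batch, so whether same-numbered libraries came from the same experiment was not settled. With the replicate number as a block 1 member, ALDH1A3, passed, and RARRES1 was at 1.11 (edgeR adjusted p = 0.0617), CYP26B1 at −0.47 (adjusted p = 0.0759) and STRA6 at −0.09 (adjusted p = 0.948).

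Depth limits ALDH1A1, ALDH1A2, RARB, RXRG and CYP26A1, at most 10 counts in each library but vehicle replicate 3, and the precision of RARRES1.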

Other observations

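Other aldehyde dehydrogenases, which act on fatty, amino acid and other aldehydes, were lower where they passed the test. All 16 listed were in the table and 15 were tested, of which 7 fell and 0 rose, 46.7% of those tested, whereas 18.4% of all transcripts tested fell and 19.3% rose. Their median log2 fold change was −0.66, against 0.02 over all transcripts and 2.07 for ALDH1A3. ALDH6A1, a mitochondrial enzyme of valine breakdown, was at 110.5, 112 and 119 reads per kb in vehicle and 44.02, 38.8 and 47.1 in guadecitabine, a log2 fold change of −1.38 (edgeR adjusted p = 3.72e-05). ALDH3A2, which oxidizes fatty aldehydes, was at 344, 332 and 331 and then 165, 142 and 145, a log2 fold change of −1.15 (edgeR adjusted p = 5.09e-05). The groups did not overlap for either gene, and both kept their call without any 1 library. The other 5 that fell, named after their values were seen, were ALDH3A1, ALDH7A1, ALDH3B1, ALDH2 and ALDH1B1, with log2 fold changes from −1.52 to −0.47.

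Of 10 coregulators of the retinoic acid receptors, all tested, 1 rose and 2 fell, which is 30% against 37.7% of all transcripts tested. NCOA3, a coactivator amplified in some breast cancers, was at 80.9, 75.2 and 73.1 reads per kb in vehicle and 122.5, 96.6 and 110.3 in guadecitabine (log2 fold change 0.53, edgeR adjusted p = 0.00705). KAT2B, a histone acetyltransferase, was at 120.2, 114 and 108.5 and then 73.6, 54.1 and 50.7 (log2 fold change −0.93, edgeR adjusted p = 0.00142). Neither gene's groups overlapped. NSD1, named after its value was seen, was at −0.39.

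The high value of STRA6 in vehicle replicate 3 was not the only one of its kind. In that library 93 transcripts had at least 100 counts and at least 5 times the next highest normalized value, and of the retinoid genes STRA6, RDH5 and DHRS9 were among them. RDH5, a retinol dehydrogenase of the eye, had 3, 3 and 314 raw counts in vehicle and 10, 2 and 1 in guadecitabine. DHRS9, a retinol dehydrogenase of epithelia, had 4, 2 and 163 and then 7, 2 and 4. Both were named after their values were seen. At 10 times the next highest value, 65 transcripts remained, RDH5 and DHRS9 among them and STRA6 not.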
